A study of Homo sapiens with 6 samples.

Results

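The genes described here encode 8 amino acid transporters of the plasma membrane, SLC7A11, SLC3A2, SLC7A5, SLC7A1, SLC1A5, SLC1A4, SLC38A1 and SLC38A2. They were taken by gene symbol, and all 8 were found among the 17646 genes listed in each table. RNA was sequenced from MDA-MB-231 cells, an established human line of triple negative breast cancer, 48 h after transfection with an siRNA against USP32 (siUSP32) or with a control siRNA (siControl), with 3 libraries in each group. USP32 encodes a ubiquitin-specific protease, and the comparison asks what changes in the cells' RNA when its transcript is depleted. The labels name 1 cell line and 1 siRNA label per group, but not whether each library had its own culture. The p-values therefore speak only of the spread among these 6 libraries, and that spread may be technical.

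Most of these carriers cross the membrane many times and move amino acids by exchange or with sodium. SLC3A2 is different: it encodes the CD98 heavy chain, a glycoprotein that crosses the membrane a single time and brings light chains such as SLC7A5 and SLC7A11 to the cell surface. When amino acids run short or the endoplasmic reticulum is stressed, phosphorylation of the initiation factor eIF2 favours translation of the transcription factor ATF4. ATF4 is known to induce several of these transporters, SLC7A11, SLC3A2, SLC7A5 and SLC38A2 among them, together with asparagine synthetase, serine synthesis enzymes and the regulators CHOP and TRIB3.

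Values are FPKM, fragments scaled to transcript length and library size, as the authors deposited them, so levels can be compared between genes per length. The read depth behind them is unknown. The listed FPKM summed to 855573 to 948641 in the siUSP32 libraries and to 686376 to 694831 in the siControl libraries, and the median gene had 3.59 to 3.88 FPKM in siUSP32 and 5.14 to 5.23 FPKM in siControl. USP32 had 2.0, 1.88 and 2.01 FPKM in siUSP32 libraries, against 7.5, 7.48 and 8.32 FPKM in siControl libraries, a 3.96-fold fall (log2 difference -1.56 ± 0.07, SE, limma adjusted p = 8.57e-08). Of 10 tested markers of the line 8 fell and 2 rose, among them genes known to be high in it and genes known to be low. EGFR averaged 7.16 FPKM in siUSP32 and 37.8 FPKM in siControl, AXL 16.7 and 64.5 FPKM, and CD44 135 and 425 FPKM, in the same order of groups. The vimentin gene VIM (1658 FPKM in siUSP32, 1085 FPKM in siControl) and MSN were the 2 that rose, MSN by 0.15 on the log2 scale, but with -0.21 by TPM and -0.06 after quantile normalization. The estrogen receptor gene ESR1 averaged 0.207 and 0.5 FPKM and the E-cadherin gene CDH1 0.0167 and 0.473 FPKM, in the same order of groups. The 8 markers of leukocytes, endothelium and fibroblasts summed to 5.95 to 7 FPKM in siUSP32 and 10.7 to 11.3 FPKM in siControl, most of it CD14 (4.58 to 5.49 and 6.71 to 8.12 FPKM). The leukocyte genes PTPRC and CD3E averaged 0.0167 FPKM or less in both groups, and the part of such cells in the results was not tested. In these bulk libraries fewer cells that express a gene and less RNA per cell cannot be told apart.

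Of the 8 transporters, 7 could be tested and all of these fell. The filter on low values kept genes that averaged 1 FPKM or more. Of the 7 transporters that passed it, 7 fell and 0 rose in siUSP32 at a limma adjusted p under 0.05, and for each of the 7 the siUSP32 and siControl values did not overlap. Over all 12003 genes tested, 41.3% were called lower and 33.3% higher, and 43.2% were lower without overlap, so falling as such was common. The median log2 difference of the 7 was -1.24, against -0.06 over all genes tested, and 4 of the 7 fell by at least 1 on the log2 scale, which 10.8% of all tested genes did. The size of the fall separated the genes, with SLC38A2, SLC38A1, SLC7A5 and SLC7A1 at one end and SLC1A5 and SLC3A2 at the other. The split of calls over all genes depended on scaling, with 4001 higher and 4956 lower as deposited, and 1723 higher (14.4%) and 7462 lower (62.2%) by TPM, with all libraries brought to equal sums. Median-ratio scaling gave 4912 higher (40.9%) and 4166 lower (34.7%), and quantile normalization gave 5253 higher (43.8%) and 3604 lower (30.0%). The median log2 difference of all genes was -0.38, 0.06 and 0.10 with these 3 scalings, against -0.06 as deposited. Beside those medians the transporters' own was -1.56, -1.11 and -0.96.

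**Figure D1:**
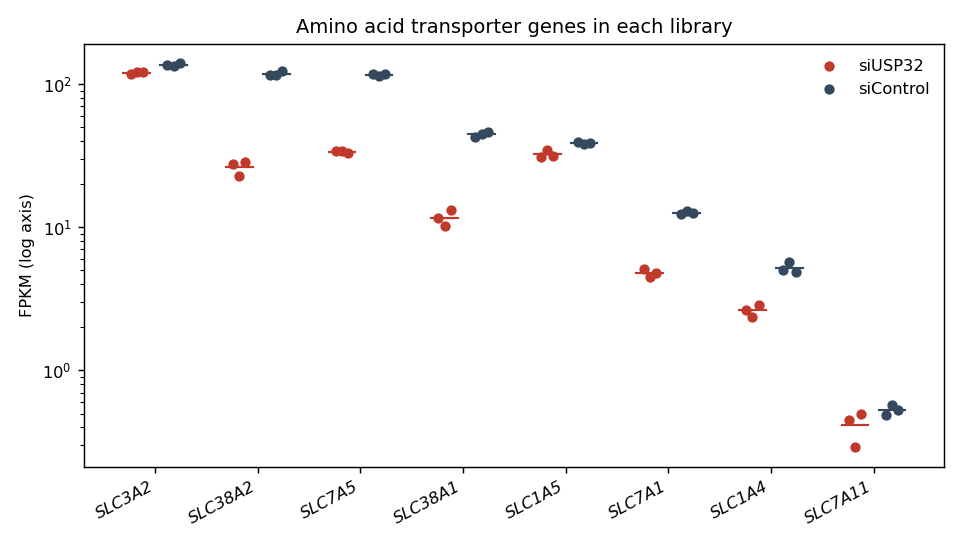
FPKM (log axis) of the 8 transporter genes in each library, siUSP32 in red left of siControl in blue. Points are libraries and lines are group means. The widest gaps are those of SLC38A2, SLC38A1 and SLC7A5, while SLC3A2 and SLC1A5 lie close together and SLC7A11 stays under 1 FPKM in all 6 libraries with overlapping groups.

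The deposited values do not include sequence, so the promoters of these genes were read from RefSeq (GRCh38.p14) to show where the element that ATF4 is known to bind is spelled out. ATF4 pairs with C/EBP proteins on an element whose core was searched as TGATGNAA on both strands, in windows from 250 bases before to 50 bases after each listed start. For the 7 genes with an entry (SLC7A11 had none) there were 13 windows, since several genes have more than 1 listed start, and 5 of the 7 genes held the core in at least 1 window. The core was present in 3.62% of all 35116 windows in the table, and in 2.62% of the tested genes that have a window. It was found in 4 of 13 genes with a window among the ATF4 targets that are not transporters (ASNS, CHAC1, FGF21 and JDP2) and in 1 of 30 other amino acid transporter genes (SLC1A3). Each match is a run of letters and not a measured binding site. Below, the sense strand is printed around the match, with the core or its reverse complement in capitals, for the 5 transporter genes and, because they moved the other way, for ASNS and CHAC1.
SLC3A2: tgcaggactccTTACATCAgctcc
SLC7A1: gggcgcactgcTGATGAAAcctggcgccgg
SLC1A5: gaggaagtggcTGATGCAAgctgtccaggg
SLC1A4: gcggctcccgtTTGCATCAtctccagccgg
SLC38A1: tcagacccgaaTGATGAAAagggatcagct
ASNS: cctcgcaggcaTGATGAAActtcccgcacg
CHAC1: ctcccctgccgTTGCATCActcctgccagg

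The matches lie 38 and 8 bases after the listed start in SLC3A2 and SLC7A1 and 97, 7 and 4 bases before it in SLC1A5, SLC1A4 and SLC38A1. In ASNS and CHAC1 they lie 68 and 209 bases before it. The window of SLC3A2 is chr11:62881725-62881748 (plus strand), that of SLC7A1 chr13:29595663-29595692 (minus), that of SLC1A5 chr19:46784893-46784922 (minus), that of SLC1A4 chr2:64989381-64989410 (plus) and that of SLC38A1 chr12:46266502-46266531 (minus). That of ASNS is chr7:97872458-97872487 (minus) and that of CHAC1 chr15:40953251-40953280 (plus). SLC7A1, SLC38A1 and ASNS share the same letters, TGATGAAA. SLC7A1 and SLC38A1 fell and ASNS rose, as described below, and the part of the element in these changes was not tested. The SLC7A5 and SLC38A2 windows do not hold the core, which says nothing of sites outside them. The FPKM tables do not tell which start was used.

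For wider context, the 250 bases before the start are given for 2 genes whose core lies wholly within them and whose transcripts moved in opposite directions. SLC1A5 is shown at 1 of its 3 listed starts (chr19:46784815-46785064, minus strand, 59.6% GC). ASNS is shown at 1 of its 2 listed starts (chr7:97872409-97872658, minus strand, 66% GC). This SLC1A5 stretch lies inside the annotated span of the gene, 46774883 to 46788594.
SLC1A5: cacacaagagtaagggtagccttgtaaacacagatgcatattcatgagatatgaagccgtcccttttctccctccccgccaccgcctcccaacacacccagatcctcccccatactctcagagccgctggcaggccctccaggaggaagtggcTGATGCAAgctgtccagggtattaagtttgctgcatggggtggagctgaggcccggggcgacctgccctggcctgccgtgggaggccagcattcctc
ASNS: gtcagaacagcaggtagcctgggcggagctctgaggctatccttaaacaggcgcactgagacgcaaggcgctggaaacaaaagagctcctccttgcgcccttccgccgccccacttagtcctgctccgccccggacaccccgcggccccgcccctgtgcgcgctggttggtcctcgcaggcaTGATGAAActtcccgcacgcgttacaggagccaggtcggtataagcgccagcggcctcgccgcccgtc

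The heavy chain was the most abundant of the 8 and, of the 7 tested, fell least on the deposited values, while after quantile normalization and the length correction SLC1A5 fell least. SLC3A2 (Entrez 6520, chromosome 11, 62856102 to 62888875 on the plus strand, GRCh38, with 12 exons in the principal transcript) had 117.56, 120.47 and 121.02 FPKM in siUSP32 libraries, against 136.36, 132.65 and 139.75 FPKM in siControl libraries. Every siUSP32 library was below every siControl library, but only narrowly. The means were 119.7 ± 1.86 and 136 ± 3.55 FPKM (SD, n = 3 each), a fall of 12.2% (log2 difference -0.19 ± 0.05, SE, limma adjusted p = 0.00462). Median-ratio scaling ended this call (log2 difference -0.05, limma adjusted p = 0.405), as no other of 15 alternatives did, and over these the limma adjusted p ran from 1.43e-05 to 0.405.

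The most abundant light chain fell far more. SLC7A5 (Entrez 8140, chromosome 16, 87830023 to 87869488 on the minus strand, 10 exons) encodes LAT1, which takes up leucine and other large neutral amino acids in exchange for intracellular ones. It had 34.07, 34.32 and 32.92 FPKM in siUSP32 libraries, against 116.62, 114.38 and 117.38 FPKM in siControl libraries. The groups were far apart and each was tight, with means of 33.8 ± 0.747 and 116 ± 1.56 FPKM (SD, n = 3 each). The fall was 3.44-fold (log2 difference -1.75 ± 0.05, SE, limma adjusted p = 4.14e-09), and it was called in all 15 alternatives (log2 differences -2.12 to -1.48).

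SLC7A11 (Entrez 23657, chromosome 4, 138164097 to 138242349 on the minus strand, 12 exons) encodes xCT, the cystine-glutamate exchanger that supplies cysteine for glutathione. It had 0.45, 0.29 and 0.5 FPKM in siUSP32 libraries, against 0.49, 0.57 and 0.53 FPKM in siControl libraries. The groups overlapped, since 1 siUSP32 library lay above the lowest siControl library. SLC7A11 was below the filter in this table, at percentile 27.4 of all listed genes in siUSP32 and 26.3 in siControl, so it had no place among the tested genes. Without the filter it was not called (log2 difference -0.12, limma adjusted p = 0.151), where 33.8% of all genes were called lower. The exact permutation p on its log2(FPKM + 1) values was 0.2, and 3 against 3 libraries cannot go below 0.1. At such levels a change of SLC7A11 in either direction was not resolved. The principal transcript annotated for it is long, 9645 bases with a coding part for 501 residues. Which length the authors divided by is not given in the sources.

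The other light chains that pair with SLC3A2 were measured too. Beside SLC7A5 and SLC7A11 they are SLC7A6, SLC7A7, SLC7A8 and SLC7A10, and the 6 together summed to 47.1, 47.2 and 47.3 FPKM in siUSP32 libraries, against 141, 139 and 141 FPKM in siControl libraries. The heavy chain was at 2.49, 2.55 and 2.56 times this sum in siUSP32 libraries, against 0.967, 0.952 and 0.989 times in siControl libraries. Thus heavy and light chain transcripts were at nearly equal FPKM in siControl and clearly unequal in siUSP32, a comparison added after the values were seen. The ratio of SLC7A5 to SLC3A2 within a library, which is not changed by scaling a whole library, was 0.29, 0.285 and 0.272 in siUSP32 and 0.855, 0.862 and 0.84 in siControl. That is a 3.02-fold fall of the ratio (mean log2 ratio -1.83 in siUSP32 and -0.23 in siControl, SE of the difference 0.03, exact permutation p = 0.1, the smallest that 3 against 3 libraries allow, and 0.12 after Benjamini-Hochberg adjustment over 6 ratios). With a correction for transcript length, made on the log2(FPKM + 1) scale, the difference was -1.16.

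**Figure D2:**
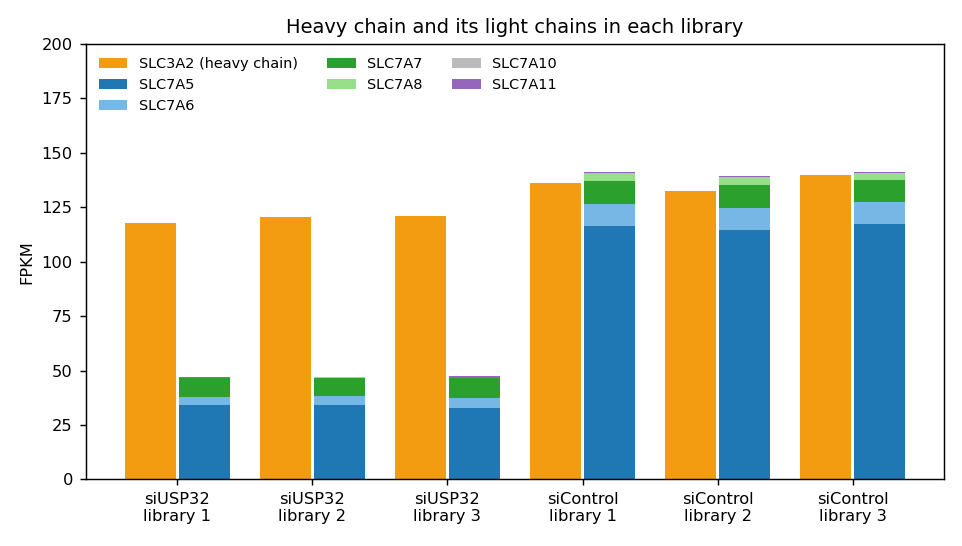
FPKM of the heavy chain gene SLC3A2 (orange bar) and of its 6 light chain genes (stacked bar) in each library, siUSP32 libraries left of siControl libraries. The light chain stack, mostly SLC7A5, reaches 47.1 to 47.3 FPKM in siUSP32 and 139 to 141 FPKM in siControl, while SLC3A2 differs little.

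SLC7A1 (Entrez 6541, chromosome 13, 29509410 to 29595688 on the minus strand, 13 exons) encodes CAT1, a carrier of arginine and lysine that works without the heavy chain. Its FPKM was 5.07, 4.5 and 4.81 in siUSP32 libraries and 12.32, 13.02 and 12.61 in siControl libraries. No value of siUSP32 came near the siControl range, and the fall was 2.64-fold (log2 difference -1.24 ± 0.06, SE, limma adjusted p = 2.48e-07). The length-corrected difference was smaller, -0.77. Within a library the ratio of SLC7A1 to SLC7A5 was 0.149, 0.131 and 0.146 in siUSP32 and 0.106, 0.114 and 0.107 in siControl, so SLC7A5 fell by more than SLC7A1 (log2 difference of the ratio, taken without a pseudocount, 0.38 ± 0.07, SE, exact permutation p = 0.1, adjusted 0.12). With the length correction, made on the log2(FPKM + 1) scale, the difference was 0.71. The change from 0.38 to 0.71 therefore reflects pseudocount as well as length.

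The glutamine and serine exchangers of the SLC1 family did not fall alike. SLC1A5 (Entrez 6510, chromosome 19, 46774883 to 46788594 on the minus strand, 8 exons) encodes ASCT2, which takes up glutamine with sodium in exchange for other neutral amino acids. It had 31.14, 34.49 and 31.36 FPKM in siUSP32 libraries, against 39.55, 38.26 and 38.8 FPKM in siControl libraries. All 3 siUSP32 libraries were lower, library 2 by the least, and the fall was 16.8% (log2 difference -0.26 ± 0.06, SE, limma adjusted p = 0.00227). The call was lost with median-ratio scaling (log2 difference -0.12, limma adjusted p = 0.119) and held in the other 14 of 15 alternatives (adjusted p 7.37e-06 to 0.119 over all 15).

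SLC1A4 (Entrez 6509, chromosome 2, 64988477 to 65023865 on the plus strand, 8 exons) encodes the related ASCT1, a carrier of alanine, serine and cysteine. It was at 2.65, 2.37 and 2.86 FPKM in siUSP32 libraries and at 5.04, 5.76 and 4.89 FPKM in siControl libraries. The groups were separate, with means of 2.63 ± 0.246 and 5.23 ± 0.465 FPKM (SD, n = 3 each), a 1.99-fold fall (log2 difference -0.78 ± 0.08, SE, limma adjusted p = 2.75e-05, length-corrected -0.50). SLC1A4 stood at 0.0851, 0.0687 and 0.0912 of SLC1A5 in siUSP32 libraries, against 0.127, 0.151 and 0.126 in siControl libraries. The difference of this log2 ratio, taken without a pseudocount, was -0.73 ± 0.15 (SE, exact permutation p = 0.1, adjusted 0.12). With the length correction, made on the log2(FPKM + 1) scale, it was -0.27. These values therefore differ in pseudocount as well as in length.

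The pair of system A carriers, which import neutral amino acids such as alanine and glutamine with sodium, held the largest fall. SLC38A2 fell most of the 7 in all 5 scalings, and SLC38A1 came next on the deposited values, while SLC7A5 fell more than SLC38A1 after quantile normalization (-1.89 and -1.80) and with the length correction (-1.48 and -1.35). SLC38A2 (Entrez 54407, chromosome 12, 46358189 to 46372867 on the minus strand, 16 exons) encodes SNAT2, a transporter known to be raised when amino acids are withdrawn. It had 27.59, 22.96 and 28.53 FPKM in siUSP32 libraries, against 115.28, 115.03 and 123.98 FPKM in siControl libraries, a 4.48-fold fall (log2 difference -2.13 ± 0.08, SE, limma adjusted p = 3.14e-08). SLC38A1 (Entrez 81539, chromosome 12, 46183063 to 46270017 on the minus strand, 17 exons), on the same chromosome, encodes SNAT1. It had 11.68, 10.22 and 13.1 FPKM in siUSP32 libraries, against 42.48, 44.96 and 45.94 FPKM in siControl libraries, a 3.81-fold fall (log2 difference -1.85 ± 0.08, SE, limma adjusted p = 9.28e-08). In both genes siUSP32 library 2 was the lowest of all libraries. The ratio of SLC38A2 to SLC38A1 changed less than either gene, at 2.36, 2.25 and 2.18 in siUSP32 and 2.71, 2.56 and 2.7 in siControl (log2 difference -0.23 ± 0.04, SE, exact permutation p = 0.1, adjusted 0.12). With the length correction, made on the log2(FPKM + 1) scale, the difference was -0.46.

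The order of the levels changed with the treatment. In siControl libraries it ran from SLC3A2 through SLC38A2 and SLC7A5, whose values overlapped (115.03 to 123.98 and 114.38 to 117.38 FPKM), to SLC38A1, SLC1A5, SLC7A1, SLC1A4 and SLC7A11, with no overlap between other neighbours. In siUSP32 libraries SLC3A2 was again first, followed by SLC7A5 and SLC1A5, whose values overlapped (32.92 to 34.32 and 31.14 to 34.49 FPKM), and then by SLC38A2, SLC38A1, SLC7A1, SLC1A4 and SLC7A11. SLC1A5 thus stood below SLC38A2 and SLC38A1 in siControl and above both in siUSP32. The 8 genes summed to 230.2, 229.6 and 235 FPKM in siUSP32 libraries, against 468, 465 and 484 FPKM in siControl libraries, or 0.0242% to 0.0275% and 0.0677% to 0.0696% of all listed FPKM.

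**Figure D3:**
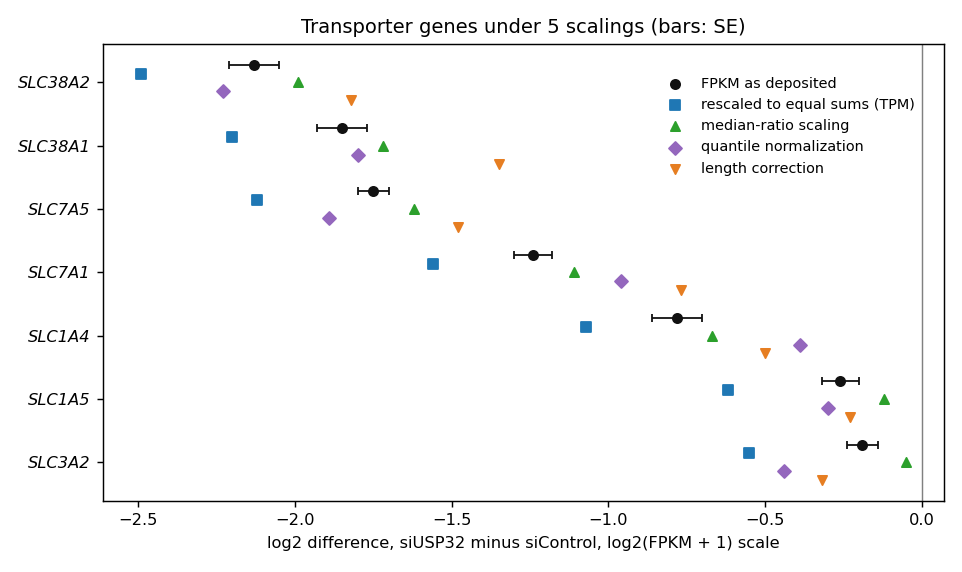
Log2 difference (siUSP32 minus siControl) of the 7 tested transporter genes with the values as deposited (black, bars are SE) and after 4 other scalings. All points lie below 0, SLC38A2 is lowest in each of the 5 scalings, and SLC3A2 (-0.05) and SLC1A5 (-0.12) come closest to 0 with median-ratio scaling.

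Transcript length moved with the groups in this series, and its values are given here beside the transporters. With the tested genes cut into 5 equal bins by length, the median log2 difference was 0.43 in the shortest bin (177 to 1762 bases) and -0.46 in the longest (5264 to 43816 bases). SLC7A1 (7347 bases) and SLC38A1 (8066 bases) belong to the longest bin. SLC7A5 (4537 bases), SLC1A4 (4561 bases) and SLC38A2 (4888 bases) belong to the bin below it, whose median was -0.25. SLC1A5 (2882 bases) and SLC3A2 (2161 bases) lie in bins with medians of -0.06 and 0.13. The part of length in the falls was tested only through the correction that follows. With each library corrected for length, 7 of 7 transporters were still called lower, against 35.2% lower and 35.0% higher of 11962 genes, with a median of -0.77 against 0.01. The corrected differences were -1.82 for SLC38A2, -1.48 for SLC7A5, -1.35 for SLC38A1, -0.32 for SLC3A2 and -0.23 for SLC1A5 (limma adjusted p = 9.7e-09 to 0.00718).

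The proteins' hydrophobic segments, counted as 19-residue stretches whose Kyte-Doolittle hydropathy averages 1.6 or more, give another scale on which the genes can be placed. SLC3A2 has 1 by this count, SLC1A4 7, SLC1A5 8, SLC38A1 and SLC38A2 9 each, SLC7A5 10, SLC7A11 11 and SLC7A1 12. Among the 310 tested genes with 7 to 12 segments, 90.6% fell and 2.58% rose. Their median was -1.11, and -0.92 with the length correction. Among the 8081 genes with none, 31.1% fell and 40.5% rose, with a median of 0.06. The multipass transporters therefore fell within a class in which falling was usual. SLC38A2 was among its stronger falls, with 8.71% of the class lower, as were SLC38A1 (15.5% lower) and SLC7A5 (17.7%). SLC7A1 was near the middle (41.3%), while 69.4% of the class lay below SLC1A4 and 87.4% below SLC1A5. For SLC3A2, the median of the 2111 genes with 1 segment was -0.23, close to its own -0.19 on the deposited values. With the length correction the class median was -0.15 and SLC3A2 was lower, at -0.32.

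**Figure D4:**
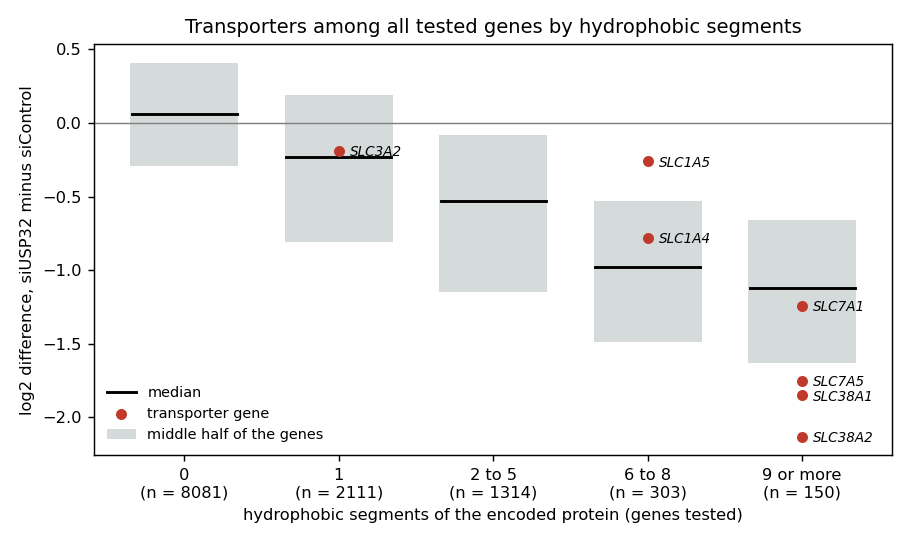
Log2 difference (siUSP32 minus siControl) of all tested genes grouped by the number of hydrophobic segments of the encoded protein, with the median (black line) and the range from the first to the third quartile (grey box), and the 7 tested transporter genes (red). Medians fall from 0.06 with none to -1.12 with 9 or more, and SLC1A5 lies above the box of its class.

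Other amino acid transporters of the plasma membrane and lysosome fell as well. Of 44 in the list, 38 were listed and 18 passed the filter, of which 17 fell, 0 rose and 1 was not called, with a median log2 difference of -1.15 (length-corrected -0.93). With median-ratio scaling 13 of the 18 fell and 5 were not called (median -1.04). After quantile normalization 13 fell, 1 rose and 4 were not called (median -0.80). SLC7A8, the LAT2 light chain, had 0.21, 0.29 and 0.21 FPKM in siUSP32 libraries, against 3.38, 3.39 and 3.18 FPKM in siControl libraries, a 14-fold fall that rests on low values (log2 difference -1.80, limma adjusted p = 3.5e-08). The filter averages over both groups, so SLC7A8 and SLC7A2 (0.623 FPKM in siUSP32, 2.41 FPKM in siControl) passed it only through siControl. The direction of these genes is therefore not independent of the filter. SLC36A1, a proton-coupled carrier of small amino acids, fell 8.09-fold to 1.22 ± 0.1 FPKM in siUSP32, against 9.89 ± 0.228 FPKM in siControl (SD, n = 3 each, limma adjusted p = 8.08e-09). SLC38A10 fell 3.98-fold (limma adjusted p = 4.39e-08). The smallest differences, named after their values were seen, were those of SLC7A7 (8.74 and 10.4 FPKM in siUSP32 and siControl), the glycine transporter SLC6A9 (9.77 and 11.6 FPKM) and the lysosomal carrier SLC66A1, which was not called (14.8 and 14.4 FPKM, log2 difference 0.03, limma adjusted p = 0.665). Of 145 tested solute carrier genes outside these lists and the mitochondrial SLC25 family, 126 fell and 8 rose (median -0.92). Of 38 tested SLC25 genes 10 fell and 15 rose (median 0.16, and -0.19 with TPM, where 19 fell and 5 rose). For the SLC25 genes, median-ratio scaling gave 6 falls and 23 rises (median 0.29). Quantile normalization gave 4 falls and 24 rises (median 0.25).

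ATF4 RNA rose, and the regulators of the stress response around it were divided. ATF4 had 455.42, 525.26 and 460.87 FPKM in siUSP32 libraries, against 135.14, 134.88 and 135.1 FPKM in siControl libraries, a 3.56-fold rise (log2 difference 1.82 ± 0.06, SE, limma adjusted p = 1.63e-08). Of 14 tested regulators 8 rose and 4 fell, with a median of 0.36 (6 and 6 with TPM, median -0.01). The 4 falls were 2 without siControl library 1 or 2 or siUSP32 library 1, and 2 with median-ratio scaling or quantile normalization. DDIT3, which encodes CHOP, rose 8.53-fold (limma adjusted p = 2.95e-09) and the pseudokinase gene TRIB3 7.99-fold. Those that fell included the stress kinase gene EIF2AK3, which encodes the membrane protein PERK (1.54 FPKM in siUSP32, 5.04 FPKM in siControl, limma adjusted p = 1.64e-06), and PPP1R15B, which encodes a subunit of an eIF2 phosphatase (2.99-fold). The kinase gene EIF2AK4, which encodes the amino acid sensor GCN2, averaged 5.91 FPKM in siUSP32 and 7.18 FPKM in siControl, a difference of -0.25 on the log2 scale, but 0.11 with the length correction and 0.06 after quantile normalization.

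The list of ATF4 targets that are not transporters was limited to enzymes, regulators and secreted factors (VEGFA and FGF21 are secreted), none with more than 1 hydrophobic segment by the count above. Genes with 0 segments had a median of 0.06 over all tested genes, and 40.5% of them rose. Of 19 tested in the list 18 rose, 0 fell and 1 was not called, with a median of 1.38 (length-corrected 1.56, TPM 1.01). With TPM 17 rose and 1 fell. With the length correction 18 rose and 1 fell, VEGFA, at -0.23 against 0.19 as deposited. ASNS, which makes asparagine from aspartate and glutamine, had 89.07, 90.22 and 94.66 FPKM in siUSP32 libraries, against 22.59, 22.12 and 25.08 FPKM in siControl libraries, a 3.93-fold rise with no overlap (log2 difference 1.93 ± 0.06, SE, limma adjusted p = 1.1e-08). Its promoter core is one of those printed above. The smallest adjusted p in the list belonged to DDIT4 (5.81-fold), PHGDH (5.49-fold) and PCK2 (6.93-fold). ALDH1L2 (1.81 FPKM in siUSP32, 0.317 FPKM in siControl) passed the filter only through siUSP32. The direction of ALDH1L2 is therefore not independent of the filter. SESN2, which encodes a leucine-binding inhibitor of mTORC1 signalling, rose 3.56-fold to 8.45 ± 0.478 FPKM in siUSP32, against 2.37 ± 0.24 FPKM in siControl (SD, n = 3 each, limma adjusted p = 2.53e-07). The list and the transporters thus differ in segment number as well as in direction, and the part of segment number in that contrast was not tested.

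**Figure D5:**
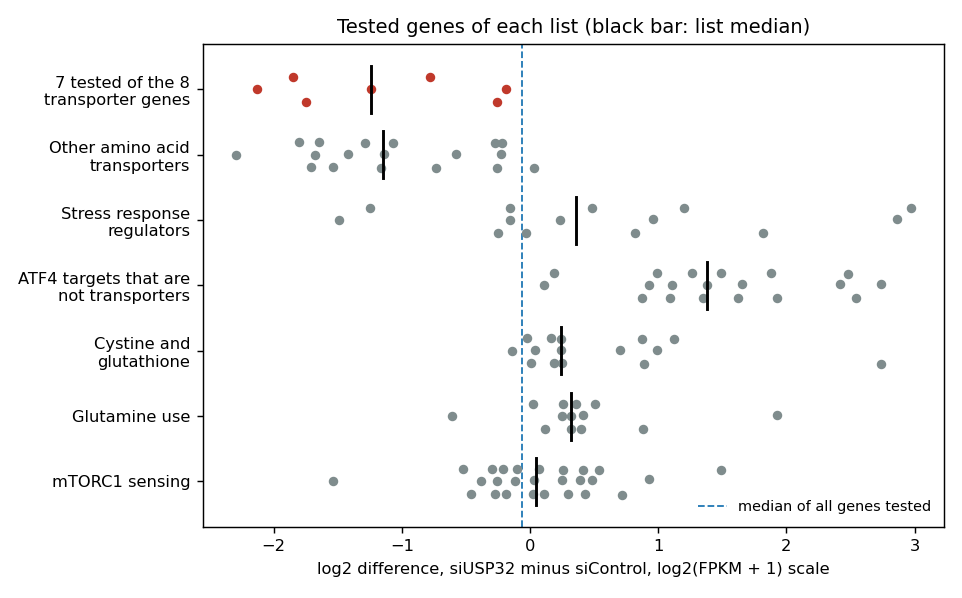
Log2 difference (siUSP32 minus siControl) of each tested gene in 7 lists, with the list median as a black bar and the median of all tested genes as a dashed line. The transporter lists lie to the left of 0 (medians -1.24 and -1.15) and the ATF4 targets that are not transporters to the right (median 1.38).

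The calls for genes that use what the transporters bring in depended on scaling. In the cystine and glutathione list 10 of 15 rose and 0 fell (median 0.24), but 6 rose and 5 fell with TPM (median -0.11). CHAC1, which degrades glutathione, rose 8.92-fold, to 22.5 ± 2.13 FPKM in siUSP32, against 2.52 ± 0.506 FPKM in siControl (SD, n = 3 each, limma adjusted p = 5.14e-08). NQO1, a quinone reductase gene, rose 1.87-fold and CBS, the gene of cystathionine beta-synthase, 2.07-fold. NFE2L2, the regulator NRF2, averaged 68.4 FPKM in siUSP32 and 67.7 FPKM in siControl and was not called. In the glutamine list 10 of 13 rose and 1 fell (median 0.32), against 2 rises and 4 falls with TPM (median -0.04). The aspartate aminotransferase gene GOT1 rose 1.89-fold and the CTP synthase gene CTPS1 1.33-fold, or 0.40 on the log2 scale, but 0.04 with TPM.

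In the list of amino acid sensing upstream of mTORC1, 10 of 26 rose and 8 fell (median 0.05), against 4 and 15 with TPM (median -0.29), 14 and 4 with median-ratio scaling and 13 and 3 after quantile normalization. The 8 falls were 5 without siControl library 2 or siUSP32 library 1. SLC38A9, a lysosomal arginine sensor that is itself a multipass carrier, fell 3.14-fold to 7.63 ± 0.686 FPKM in siUSP32, against 24 ± 1.22 FPKM in siControl (SD, n = 3 each, limma adjusted p = 1.51e-07). TFEB, a transcription factor gene of lysosome biogenesis, fell 1.68-fold, and MTOR, with 7.18 FPKM in siUSP32 and 10.2 FPKM in siControl, differed by -0.46 on the log2 scale, but by 0.06 with the length correction. LAMTOR4, a subunit of the Ragulator scaffold, rose 1.92-fold and SEC13 1.65-fold. Among 12 genes of proteins reported to associate with these transporters or the heavy chain or to act on them, 8 fell and 3 rose (median -0.51). With median-ratio scaling 6 fell and 4 rose (median -0.38), and with TPM 8 fell and 2 rose (median -0.87). The 8 falls were 6 without siControl library 1 or 3. ITGB1, the integrin chain that binds CD98, fell 13.2-fold and CD44, a variant of which binds xCT, fell 3.15-fold. LAPTM4B, which recruits the LAT1 and CD98 pair to lysosomes, fell 2.43-fold. TXNIP and the galectin gene LGALS3 each rose 1.6-fold, and OTUB1, which encodes a deubiquitinase of xCT, rose 1.34-fold (log2 difference 0.41, and 0.04 with TPM).

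Genes with values most like those of SLC3A2 and SLC38A2, the transporters with the smallest and the largest log2 difference, were sought by Euclidean distance over the 6 libraries in log2(FPKM + 1) minus the siControl mean. Closest to SLC3A2 were CSRNP2 (distance 0.0411), UBQLN4 (0.0519) and SLC25A44 (0.0546). Closest to SLC38A2 were ATP11B (0.0796), SGMS2 (0.0883) and SLC16A6 (0.0918). ATP11B, which encodes a phospholipid flippase, averaged 1.96 FPKM in siUSP32 and 11.5 FPKM in siControl. SGMS2, which encodes a sphingomyelin synthase, averaged 4.9 and 24 FPKM and the carrier gene SLC16A6 6.35 and 31.7 FPKM, in the same order of groups.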

How the data were processed

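Cells were lysed in Trizol and libraries prepared for the MGISEQ-2000RS, per the labels' protocols. The authors deposited FPKM to 2 decimals, 1 table per library, per the file headers. They used GRCh38.p13, per the submitters' processing notes. Aligner, counting tool, annotation and strand handling are not given in the sources. FPKM is not a count, and count tests were left out. Reads shared between near-identical genes could not be checked.

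A gene was tested if its FPKM averaged 1 or more over the 6 libraries, which left 12003 genes, on the log2(FPKM + 1) scale. Groups were compared with limma 3.58.1 (R 4.3.3, mean-variance trend, 2-sided), adjusted by Benjamini-Hochberg over all of them, and called under 0.05. The fit was tested on simulated data. Log2 differences are siUSP32 minus siControl, understate low genes because of the pseudocount, and folds are ratios of mean FPKM. Ratios between transporters were taken on FPKM without a pseudocount and tested with exact permutation tests. Their length-corrected differences were taken on the log2(FPKM + 1) scale. Locations, lengths and hydrophobic segments came from GENCODE 29 (GRCh38) through Entrez identifiers, from the principal transcript. Length correction used a robust loess curve (span 0.5) per library.

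The transporters, the 9 gene lists and the tests were chosen with earlier results of these data known. Of the 169 list entries 162 were listed, and the other 7 were not analysed here. The rule for named genes took USP32, the 8 transporters, ATF4, DDIT3, up to 3 rises and 3 falls per list with the smallest adjusted p, and the 3 genes most like the extreme transporters. Genes named outside it were chosen after their values were seen. The result for 1 gene is not reported here. The ratio of the heavy chain to its summed light chains was added after seeing the data.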

Additional observations from a re-analysis of the deposited data

How the results depend on the processing

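The 7 tested transporters kept their negative direction in every alternative run (pseudocount 0.1, no filter, a minimum FPKM of 5, TPM, median-ratio scaling, quantile normalization, no trend, length correction, replicate block and each library left out). Their calls held except for SLC3A2 and SLC1A5 with median-ratio scaling, which left 5 called lower, and SLC1A4, which the minimum of 5 removed, leaving 6. Over all genes, TPM gave 1723 higher and 7462 lower, and the minimum of 5 gave 3068 lower. Of the other amino acid transporters, 26 were lower without a filter and 10 with the minimum of 5, as more or fewer were tested. With the same 18 tested, 13 were lower with median-ratio scaling. After quantile normalization 13 were lower and 1 was higher. Among the genes named by the rule, reversed values were those of EIF2AK4 (0.06 after quantile normalization, 0.11 with the length correction), MSN (-0.21 with TPM, -0.06 after quantile normalization) and MTOR (0.06 with the length correction), and the cause was not tested. Other list genes were not followed singly through all runs. Some of them reversed too, such as VEGFA (0.19, and -0.23 with the length correction) and LAMTOR2 (0.41 and -0.13). The difference of the SLC7A11 to SLC3A2 ratio, -0.21 (exact permutation p = 0.7), was 0.07 with a pseudocount of 1 and ranged from -0.36 to 0.03 with a library left out, being 0.03 without siUSP32 library 2. That of SLC7A11 to SLC7A5 was 1.39, from 1.21 to 1.64. The length correction, made with a pseudocount of 1, gave -1.16 for SLC7A5 to SLC3A2 and -0.27 for SLC1A4 to SLC1A5. It gave -0.46 for SLC38A2 to SLC38A1 and 0.71 for SLC7A1 to SLC7A5. With a pseudocount of 1 and no length correction the last was 0.52.

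Deviations of same-numbered libraries correlated at -0.0766, 0.0706 and 0.119, so the replicate numbers were not taken to pair the libraries. The fit with the replicate number as a block called 4016 genes higher and 4979 lower and all 7 transporters lower. Depth is unknown, so the precision of low values such as those of SLC7A11 could not be given.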
